A study of Mus musculus with 16 samples.

Results

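The genes examined here were 10 genes of matrix turnover at the base of the retina that are tied to macular disease: the metalloproteinase inhibitors Timp3, Timp1 and Timp2, the proteases Mmp2, Mmp14 and Htra1, the fibulins Efemp1 and Fbln5, and the drusen proteins Vtn and Clu. They were chosen by name, not by their values, out of 51912 genes in the deposited table, with earlier results of these data known. Genes whose mean over the libraries reached 1 CPM (counts scaled to 1000000 per library, with TMM-scaled library sizes) were tested, 15380 in number, and all 10 were among them. The tissue was RPE (retinal pigment epithelium), which nourishes the photoreceptors, from male C57BL/6 mice aged 40 weeks, lifted off the choroid with forceps after the neural retina had been peeled away. The 4 groups were wild type untreated, wild type exposed to hydroquinone (an oxidant), SUCNR1 KO untreated and SUCNR1 KO exposed to hydroquinone, where SUCNR1 is the succinate receptor. Each group had 4 libraries, 1 per eye. By the titles, the untreated wild-type group came from 2 mice, the untreated knockout group from 3 and each hydroquinone group from 4, so 3 mice gave both eyes. The protocol in the labels instead speaks of 4 animals in each group. The labels give neither the dose and duration of hydroquinone nor how the knockout was made.

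The RPE rests on Bruch's membrane, a thin sheet of collagen and elastic fibres that it shares with the choroid. Secreted proteases cut this matrix and TIMP proteins, which bind metalloproteinases, hold them back. Deposits between the RPE and this sheet, called drusen, are the hallmark of age-related macular degeneration. Several of the genes carry variants in human macular disease: TIMP3 in Sorsby fundus dystrophy, EFEMP1 in Malattia Leventinese, and HTRA1 and FBLN5 in age-related macular degeneration.

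Library totals ran from 21113549 to 35332444 counts. All 12 RPE markers on the list used were present, with a summed level of 21540 to 34210 CPM over the libraries. The libraries also held RNA of neighbouring tissues in uneven amounts. The summed level of 15 rod photoreceptor markers ran from 263 to 25610 CPM, that of 6 corneal epithelium markers from 3545 to 27910 CPM, that of 6 oligodendrocyte markers from 143.9 to 10130 CPM, and that of 10 stromal (fibroblast) markers from 1535 to 3660 CPM. The 4 groups overlapped in each of these sums, and no marker of these lists was at 0 in all libraries. The targeted gene, Sucnr1, held 29 counts in 8 wild-type libraries and 4 counts in 8 knockout libraries, too few to check the genotype labels. Library identifiers came in 2 forms, with a letter (7 libraries) or without (9), and values are also given within each form. In such bulk samples, fewer cells of a type and less RNA per cell cannot be told apart.

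Per transcript length, the drusen protein gene Clu and the inhibitor gene Timp3 stood far above the rest. Levels per length are given as TPM (counts divided by the length of the annotated exons and scaled to the same sum in each library). Clu, which encodes the secreted chaperone clusterin, was at 3766 ± 695 TPM (SD, n = 16 libraries), the 20th highest level of 21795 protein-coding genes. Timp3, whose product stays bound in the matrix, was at 2064 ± 507 TPM and held the 34th place. Clu was above Timp3 in 16 of 16 libraries, although their ranges overlapped. Timp2 followed at 570 ± 100 TPM and did not overlap with Timp3.

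Below them came Efemp1 at 317 ± 70.8 TPM and Vtn at 172 ± 131 TPM, with Efemp1 the higher in 13 of 16 libraries. Vtn was above the next gene, Mmp14, in only 10 of 16, with overlapping ranges, so these could not be ordered. Mmp14, at 76.7 ± 11.4 TPM, and Htra1, at 76.4 ± 13.6 TPM, could not be ordered, since Mmp14 was the higher in 6 of 16 libraries. Mmp2 at 52.2 ± 15.6 TPM and Fbln5 at 49.6 ± 11.0 TPM could not be ordered either (Mmp2 higher in 10 of 16). Timp1, an inhibitor gene known to be induced by inflammation, was the lowest at 15.3 ± 4.5 TPM and rested on 66 to 192 counts per library.

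In GRCm38 coordinates (GENCODE vM21), the inhibitors were Timp3 (ENSMUSG00000020044) at chr10:86300372-86349506, Timp1 (ENSMUSG00000001131) at chrX:20870166-20874735, Timp2 (ENSMUSG00000017466) at chr11:118301069-118355740. The proteases were Mmp2 (ENSMUSG00000031740) at chr8:92827291-92853420, Mmp14 (ENSMUSG00000000957) at chr14:54431612-54445364, Htra1 (ENSMUSG00000006205) at chr7:130936111-130985660. The fibulins were Efemp1 (ENSMUSG00000020467) at chr11:28853204-28926743, Fbln5 (ENSMUSG00000021186) at chr12:101746565-101819055, and the drusen proteins Vtn (ENSMUSG00000017344) at chr11:78499091-78502324, Clu (ENSMUSG00000022037) at chr14:65968483-65981547.

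**Figure D1:**
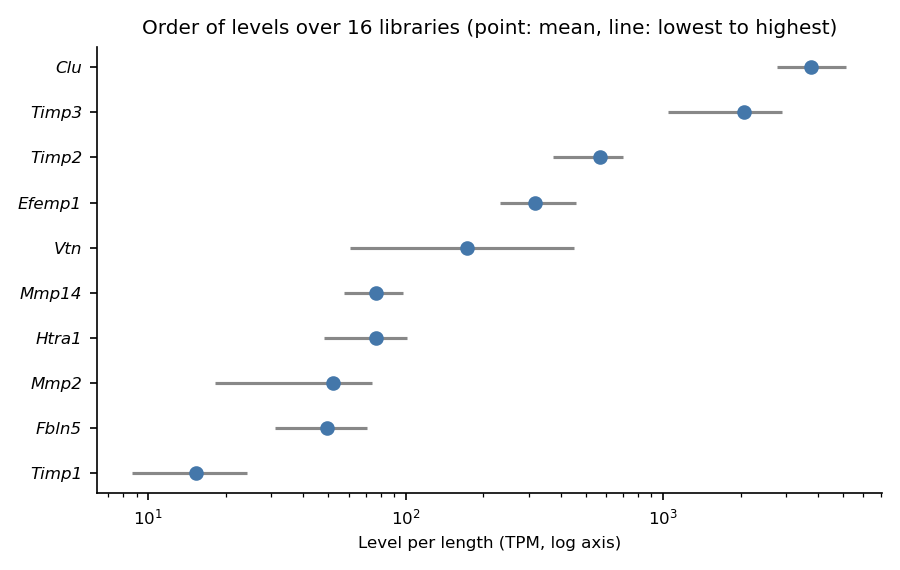
Mean level per length of each gene (TPM, log axis) over 16 libraries, with a line from the lowest to the highest library. Clu and Timp3 lie at 3766 and 2064 TPM, and Timp1 lies at 15.3 TPM.

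Among the 4 TIMP genes the shares of Timp3 and Timp2 varied little. Timp3 made up 77.5% ± 2.1 of TIMP transcripts per length (SD, n = 16 libraries), between 72.6% and 81.2% in single libraries. Timp2 made up 21.8% ± 1.9. The small shares varied more, that of Timp1 (0.607% ± 0.252) from 0.356% to 1.25% and that of Timp4, which is not one of the 10 genes (0.107% ± 0.061), from 0.047% to 0.242%. The mean Timp3 share of wild-type mice was 76.9% untreated and 77.2% after hydroquinone, and that of knockout mice 78.1% and 77.7%. Mmp14 is the membrane protease that activates the gelatinase Mmp2 in a complex with Timp2. Timp2 exceeded Mmp14 per length in every library, by 4.61 to 9.55 times, and exceeded Mmp2 by 7.23 to 31.0 times. These are ratios of transcripts, not of protein.

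Timp3, Timp2 and Fbln5 varied together over the libraries and Vtn varied the other way from Timp2, with values given further on, so the promoters of these 4 genes are shown. The table of RefSeq start sites (GRCm38.p6) held 8 of the 10 genes. Each line gives the 250 bases before the start site, 5′ to 3′ on the strand of the gene, and for Fbln5 the first of its 2 listed starts. The windows are chr10:86300162-86300411, plus strand, for Timp3, chr11:118355412-118355661, minus strand, for Timp2, chr12:101819120-101819369, minus strand, for Fbln5, and chr11:78498870-78499119, plus strand, for Vtn. RefSeq and GENCODE starts differ: by the GENCODE spans above, the Timp2 window lies inside the gene. The Timp3 and Vtn windows run into theirs. Capitals mark matches, on either strand, to 6 motifs: TGANTCA (bound by AP-1), TGANNNNGC (the core of the antioxidant response element, bound by NRF2), TAATCC (bound by OTX and CRX factors), CACGTG (an E-box bound by MITF), the core promoter element TATAAA, and the GC box, which reads GGGCGG.
Timp3: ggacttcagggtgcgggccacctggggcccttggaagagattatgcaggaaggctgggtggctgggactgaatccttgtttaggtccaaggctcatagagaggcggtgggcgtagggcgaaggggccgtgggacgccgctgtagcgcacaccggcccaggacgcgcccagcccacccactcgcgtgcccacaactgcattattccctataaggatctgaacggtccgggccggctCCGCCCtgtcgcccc
Timp2: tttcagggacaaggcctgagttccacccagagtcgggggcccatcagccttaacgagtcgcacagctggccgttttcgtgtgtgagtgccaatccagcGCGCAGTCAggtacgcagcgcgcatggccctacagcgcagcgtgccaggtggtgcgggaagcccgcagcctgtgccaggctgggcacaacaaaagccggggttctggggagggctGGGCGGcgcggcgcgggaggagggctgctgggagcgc
Fbln5: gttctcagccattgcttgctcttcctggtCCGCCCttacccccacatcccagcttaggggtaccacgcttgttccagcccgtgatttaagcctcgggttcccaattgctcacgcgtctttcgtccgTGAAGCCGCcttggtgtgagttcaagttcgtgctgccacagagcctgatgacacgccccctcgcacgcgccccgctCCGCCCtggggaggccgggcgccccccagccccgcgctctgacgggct
Vtn: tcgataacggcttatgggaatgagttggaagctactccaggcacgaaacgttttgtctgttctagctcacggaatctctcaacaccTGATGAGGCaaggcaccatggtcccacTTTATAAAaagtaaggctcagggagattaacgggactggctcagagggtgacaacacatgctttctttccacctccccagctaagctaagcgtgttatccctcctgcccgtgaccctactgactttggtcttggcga

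The 3 inhibitor and fibulin promoters were rich in G and C, at 65.6% for Timp3, 68.0% for Timp2 and 65.2% for Fbln5, against a median of 52.4% over all 32851 windows of this length. Each held the GC box, which 32.7% of all windows hold. These traits were not particular to the 3, since 7 of the 8 genes held a GC box and Htra1 had 64.8% G and C. They also held for the first Fbln5 start only: the window of its other listed start had 49.6% G and C and no match to any of the 6 motifs. The Vtn window had 50.4% G and C and no GC box. It held a pair of overlapping TATAAA matches, 1 on each strand, which began 137 and 135 bases before the start. That motif was found in 12.4% of windows. The antioxidant response core was in the windows of Timp2, Mmp14, Htra1, Fbln5 (first start) and Vtn, and in 35.2% of all windows. The AP-1 motif was in that of Efemp1 alone among the 8 genes, and in 6.75% of all windows. The OTX and CRX motif and the MITF E-box had no match in these windows. A match is a stretch of letters and was not tested for binding.

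Hydroquinone changed none of the 10 genes past the threshold in either genotype. With edgeR's quasi-likelihood test (adjusted p below 0.05 by Benjamini-Hochberg over all genes tested), 0 of 10 passed in wild type, where 0.0065% of all tested genes passed, and 0 of 10 in knockout, where 0.0455% passed (0.0325% higher and 0.013% lower). At an unadjusted p below 0.05 there was 1 of 10 in wild type (background 4.28%) and 0 of 10 in knockout (background 2.96%). DESeq2, and limma with the mouse as a block, also called 0 of the 10 in each genotype. In wild type 3 of the 10 log2 fold changes were above 0, with a median of -0.075, against -0.00020 over all tested genes. In knockout 7 were above 0, with a median of 0.025 against -0.0014. Averaged over genotype, 0 of 10 passed, against 0.0845% of all genes (0.0715% higher and 0.013% lower), and 0 had an unadjusted p below 0.05 (background 5.72%).

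The dominant inhibitor Timp3 was at 3828, 5157, 6443 and 4040 CPM in untreated wild type and at 4244, 2892, 6567 and 5927 CPM with hydroquinone. Knockout libraries had 5215, 6015, 5969 and 3919 CPM untreated and 3702, 4990, 5581 and 6132 CPM after hydroquinone. High and low libraries occurred in every group, and all groups overlapped. The log2 fold change with hydroquinone was 0.01 in wild type (95% confidence interval -0.54 to 0.56) and -0.05 in knockout (-0.60 to 0.50).

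The second inhibitor, Timp2, was measured more tightly. Its group means were 666 ± 97 and 645 ± 134 CPM without and with hydroquinone in wild type, and 678 ± 90 and 678 ± 133 CPM in knockout (SD, n = 4 libraries each). The log2 fold change was -0.04 in wild type (95% interval -0.42 to 0.33) and 0.00 in knockout (-0.38 to 0.38), where it was -0.41 without a letter and 0.36 with one. Timp1 was between 2.27 and 6.22 CPM in all libraries, and its intervals were wider, -0.77 to 0.62 in wild type and -0.69 to 0.70 in knockout.

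Of the proteases, Htra1 came nearest to a difference. Htra1 encodes a secreted serine protease that cuts fibronectin, fibulins and other matrix proteins. It was at 64.8, 63.2, 80.1 and 71.1 CPM in untreated wild type and at 44.3, 56.5, 60.6 and 52.4 CPM with hydroquinone. All 4 treated wild-type libraries lay below all 4 untreated ones, while 2.91% of tested genes had groups that did not overlap in either direction. The untreated libraries were the eyes of only 2 mice, and the eyes of a mouse differed in Htra1 by 1.03 and 1.13 times. The 4 untreated values, counted singly in the test below, thus stand for 2 animals. The log2 fold change was -0.39 (95% interval -0.67 to -0.10, unadjusted p = 0.0125), and it did not pass over all genes (edgeR adjusted p = 0.994). By identifier form it was -0.42 (no letter) and -0.36 (letter, where wild type with hydroquinone has 1 library). In knockout Htra1 was at 80.0, 58.4, 75.4 and 65.7 CPM untreated and at 60.9, 64.7, 84.35 and 75.3 CPM with hydroquinone, groups that overlapped, with a log2 fold change of 0.03 (-0.26 to 0.32). The difference between the genotypes' responses was 0.41 on the log2 scale (95% interval 0.01 to 0.82) and did not pass (edgeR adjusted p = 1.00), nor did any other of the 10 interactions (0% of all genes, 1.92% at an unadjusted p below 0.05). In knockout no gene of the 10 had treatment groups that did not overlap (background 1.91%).

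The sum of 6 glial markers (Glul, Slc1a3, Aqp4, Gfap, Rgs20 and Vim, some of which the RPE also expresses) separated the same wild-type groups as Htra1. All 6 were tested and none was at 0 in all libraries. Their sum in wild-type mice was 2858 to 4073 CPM untreated and 2339 to 2820 CPM after hydroquinone, without overlap. In knockout mice it was 2964 to 4048 CPM and 2957 to 3870 CPM. The mean log2 score of the same markers did overlap between the wild-type groups (5.93 to 7.86 and 5.35 to 6.65). With this score in the fit, an alternative added after the data were seen, the Htra1 log2 fold change in wild type was -0.59 (edgeR adjusted p = 0.842), and over mice Htra1 and the score had an r of 0.14. Both used the score, not the sum that separated the groups. Whether glial RNA accounts for the Htra1 values was not tested. Htra1 (mean 66.1 CPM) lies within the annotated span of Fgfr2 on the opposite strand (222.5 CPM), and whether counting used strand is not given in the sources used here, so part of the Htra1 counts is uncertain.

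The metalloproteinases differed less than their libraries. Mmp2 was at 59.6, 59.7, 77.2 and 34.0 CPM in untreated wild type and at 41.8, 52.2, 66.0 and 58.7 CPM with hydroquinone, a log2 fold change of -0.08 (95% interval -0.79 to 0.64). In knockout it was at 63.3, 65.8, 18.65 and 32.3 CPM untreated and at 61.1, 39.8, 59.0 and 58.2 CPM with hydroquinone. That log2 fold change was 0.28 (-0.44 to 0.99), and by identifier form it was -0.39 (no letter) and 1.21 (letter, edgeR adjusted p = 0.175). The lowest library was untreated knockout replicate 3, and its group overlapped with all others. Mmp14 varied little, between 95.94 and 169.6 CPM, with log2 fold changes of 0.00 in wild type (-0.36 to 0.37) and 0.15 in knockout (-0.21 to 0.51), the latter -0.26 without a letter and 0.58 with one. In all, 7 of the 10 genes in wild type and 8 of 10 in knockout had hydroquinone values of opposite sign in the 2 identifier forms.

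The fibulins, glycoproteins of elastic fibres and basement membranes, likewise overlapped in all groups. Efemp1 encodes fibulin-3 and was at 183 ± 41 and 172 ± 23 CPM without and with hydroquinone in wild type, and at 202 ± 25 and 220 ± 65 CPM in knockout (SD, n = 4 libraries each). Its log2 fold changes were -0.09 (95% interval -0.52 to 0.34) and 0.12 (-0.31 to 0.55). Fbln5 encodes fibulin-5, which is needed for elastic fibre assembly. It was at 100 ± 16 and 88.6 ± 16.7 CPM in wild type and at 110 ± 12 and 112 ± 30 CPM in knockout, with log2 fold changes of -0.18 (-0.58 to 0.23) and 0.02 (-0.38 to 0.42).

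Of the drusen proteins, Clu was at 3106, 3450, 4130 and 3361 CPM in untreated wild type and at 3736, 3246, 4649 and 4200 CPM with hydroquinone. In knockout it was at 3888, 3413, 4391 and 3090 CPM untreated and at 3494, 4035, 4864 and 5215 CPM with hydroquinone. The treated means were higher in both genotypes, and the groups overlapped. The log2 fold change was 0.17 in wild type (95% interval -0.19 to 0.53) and 0.25 in knockout (-0.11 to 0.61). Averaged over genotype it was 0.21 (-0.04 to 0.47, edgeR adjusted p = 0.911).

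Vtn, the gene of the adhesion and complement-binding protein vitronectin, had the widest spread, 7.29 times between its lowest and highest library. It was at 77.2, 191, 46.8 and 137 CPM in untreated wild type and at 71.2, 74.1, 85.0 and 37.7 CPM with hydroquinone. Knockout libraries had 75.0, 37.05, 170 and 247 CPM untreated and 270.2, 41.1, 53.3 and 51.4 CPM after hydroquinone. The log2 fold change of -0.76 in wild type had an interval of -2.16 to 0.65, and that of -0.35 in knockout one of -1.75 to 1.05. Without knockout hydroquinone replicate 1, the highest library, the knockout value was -1.45 (edgeR adjusted p = 0.399). The direction also turned with the identifier form: the knockout value was 1.44 without a letter and -1.99 with one, and the wild-type value 0.32 and -2.12, and none passed.

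**Figure D2:**
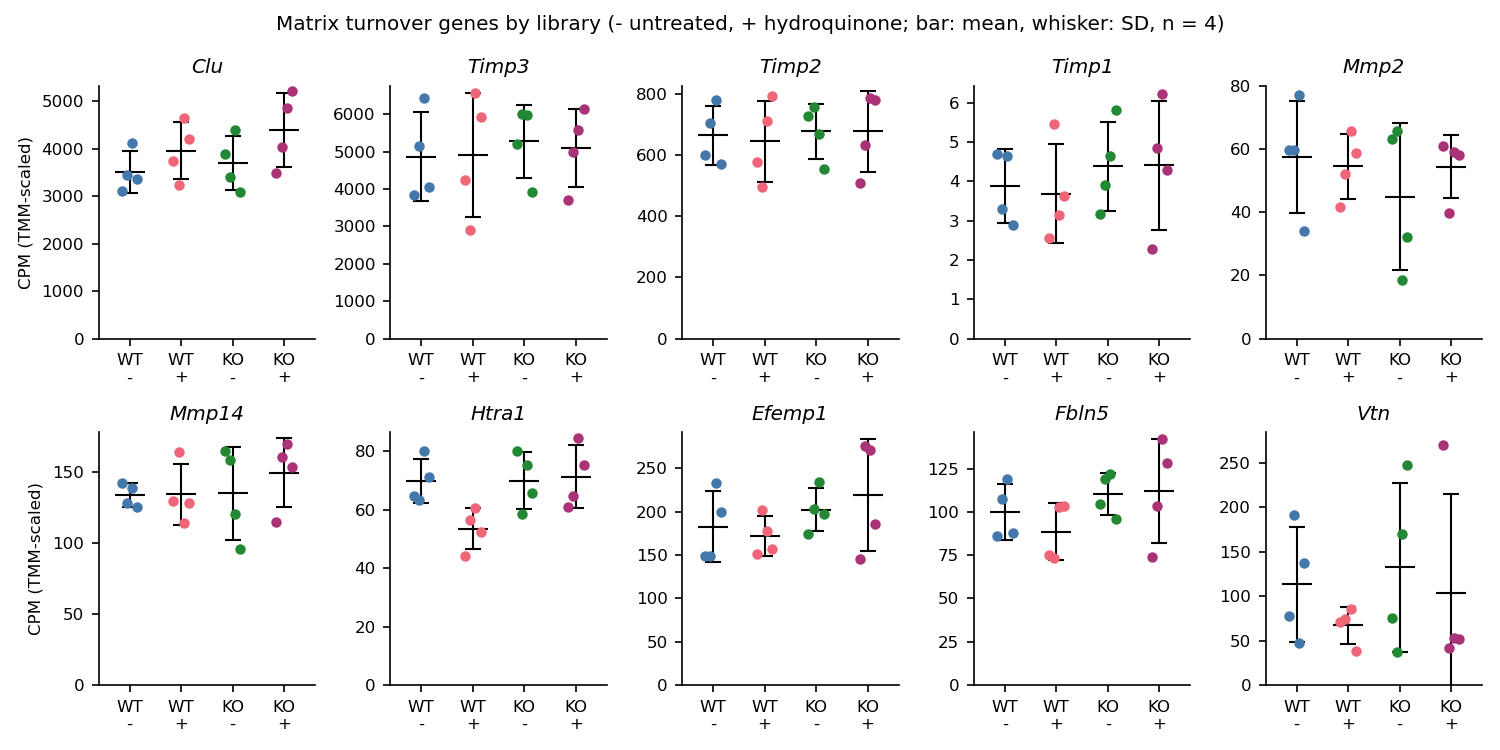
CPM with TMM-scaled library sizes for each gene in the 4 groups (WT wild type, KO SUCNR1 knockout; - untreated, + hydroquinone), 1 point per library, with the mean and SD of 4 libraries (the whisker of Vtn in the last group is cut at 0). Htra1 in wild type with hydroquinone, at 44.3 to 60.6 CPM, lies below untreated wild type at 63.2 to 80.1 CPM, and the other genes overlap between treatments.

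Loss of the succinate receptor was compared within each treatment, and none of the 10 genes passed. In untreated mice 0 of 10 passed (0% of all tested genes did), 0 had an unadjusted p below 0.05 (background 1.32%), and no gene's groups failed to overlap (background 1.05%). Under hydroquinone 0 of 10 passed (0% of all tested genes did), and 1 of 10 had an unadjusted p below 0.05 (background 4.18%). DESeq2 called 0 of the 10 in both. In each treatment 9 of the 10 log2 fold changes were above 0, with medians of 0.096 untreated and 0.205 under hydroquinone, against 0.012 and 0.015 over all tested genes, of which 53.2% and 53.1% were above 0. The values of 6 genes in untreated mice and of 3 under hydroquinone had opposite signs in the 2 identifier forms. Averaged over treatment the median was 0.161 against 0.020, 0 of 10 passed (0% of all genes), and 1 of 10 had an unadjusted p below 0.05 (background 2.96%).

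That gene was Htra1 in both cases. Under hydroquinone its knockout libraries (60.9 to 84.35 CPM) all lay above the wild-type ones (44.3 to 60.6 CPM), as 2.33% of tested genes did in one direction or the other. The log2 fold change was 0.42 (95% interval 0.13 to 0.70, unadjusted p = 0.00794, edgeR adjusted p = 1.00). This comparison shares its wild-type libraries with the hydroquinone comparison above. The sum of the 6 glial markers also separated these groups, at 2957 to 3870 CPM in knockout and 2339 to 2820 CPM in wild type. Their mean log2 score overlapped, at 5.73 to 7.89 in knockout and 5.35 to 6.65 in wild type. With the glial score in the fit the value was 0.55 (edgeR adjusted p = 0.472). Among libraries whose identifier has no letter the value was 0.18, and among those with one it was 0.61. In untreated mice Htra1 was at 69.8 ± 7.6 CPM in wild type and 69.9 ± 9.7 CPM in knockout (SD, n = 4 libraries each), and the interval of the log2 fold change was -0.29 to 0.29. Under hydroquinone the values with the next smallest p were those of Fbln5, 0.34 (95% interval -0.07 to 0.74), and Efemp1, 0.35 (-0.08 to 0.79).

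**Figure D3:**
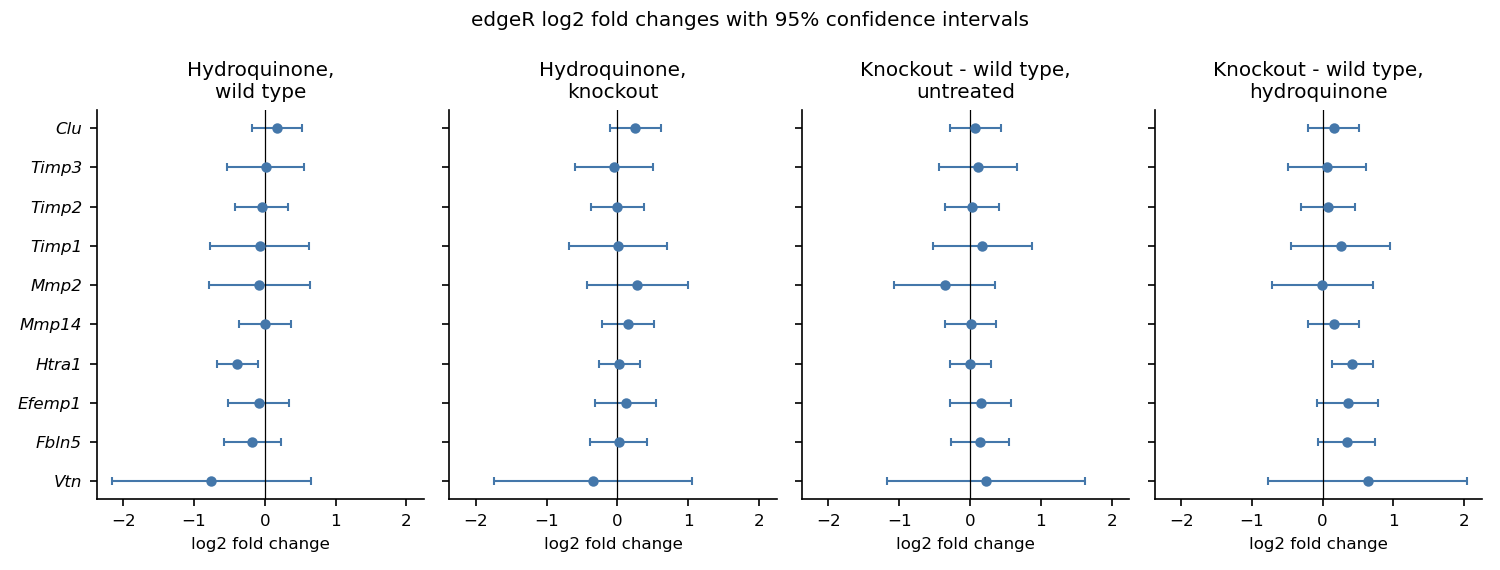
edgeR log2 fold change of each gene with its 95% confidence interval for hydroquinone against untreated in each genotype and for knockout against wild type in each treatment. The intervals of Htra1 lie off 0 in wild type with hydroquinone (-0.67 to -0.10) and for knockout under hydroquinone (0.13 to 0.70), and those of Vtn are the widest.

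Other genes of matrix turnover were read from a list of 56 proteases, inhibitors and elastic fibre genes, 54 of which were tested. None passed in any of the 7 comparisons made (each treatment effect, each genotype effect, their averages and the interaction). For hydroquinone 23 of 54 log2 fold changes were above 0 in wild type (median -0.059) and 37 of 54 in knockout (median 0.106). For knockout against wild type there were 27 of 54 in untreated mice (median -0.0056) and 40 of 54 under hydroquinone (median 0.239). Of all 15380 tested genes, 7684 and 7629 were above 0 for hydroquinone in wild type and knockout, and 53.2% and 53.1% for knockout against wild type untreated and under hydroquinone. The smallest p under hydroquinone between genotypes was that of Mfap2, a microfibril component, at 10.5 ± 1.1 CPM in wild type and 17.1 ± 4.6 CPM in knockout (SD, n = 4 libraries each). Its log2 fold change was 0.70 (SE 0.19, edgeR adjusted p = 1.00). Fbln1, another fibulin, followed with 0.67 (SE 0.24, edgeR adjusted p = 1.00).

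With hydroquinone in wild type, the smallest p-values of this list were those of the aggrecanase gene Adamts4 (log2 fold change -2.33, SE 0.85) and of Htra3, a relative of Htra1 (-0.59, SE 0.24), with edgeR adjusted p = 0.994 for each. In knockout they were Mfap2 (0.56, SE 0.19) and the protease gene Adamts1 (0.81, SE 0.35), with edgeR adjusted p = 1.00 for each. Averaged over genotype they were the plasminogen activator gene Plat (-0.36, SE 0.15) and Htra3 (-0.39, SE 0.17), with edgeR adjusted p = 0.868 for each. Between genotypes they were Ltbp2 (0.53, SE 0.32) and Adam9 (0.18, SE 0.12) in untreated mice, with edgeR adjusted p = 1.00 for each. Averaged over treatment they were Ltbp2 (0.57, SE 0.23) and Fbn2 (0.54, SE 0.24), with edgeR adjusted p = 0.987 for each. For the interaction they were Mfap2 (0.87, SE 0.28) and Adamts1 (1.06, SE 0.50), with edgeR adjusted p = 1.00 for each. Adamts4 spanned 0.947 to 46.7 CPM within untreated wild type alone, with the lowest value in the library with the lowest oligodendrocyte score of its group (3.38) and the highest in that with the highest (9.56). Wild-type mice had a median sum of the 6 oligodendrocyte markers of 4002 CPM untreated and 196 CPM after hydroquinone, with overlap. With that score in the fit the log2 fold change of Adamts4 was 0.05 (edgeR adjusted p = 0.996). With the glial score it was 0.13 (edgeR adjusted p = 0.988). Both alternatives were added after the data were seen. The oligodendrocyte score itself averaged 7.32 in untreated wild type and 4.23 with hydroquinone, so score and treatment were not independent in wild type. Whether oligodendrocyte RNA accounts for the Adamts4 values was not tested.

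Over mice of all groups together, several genes varied with the tissue mix of the libraries. Relations inside single groups were not tested. Each gene was set against the mean log2(CPM + 1) of 3 marker lists over 13 mice, with the eyes of a mouse averaged, which gave 30 relations. CPM is a share of a library, so RNA of one tissue lowers the values of the others. Of the 30, 5 passed (permutation p for Pearson's r, adjusted p below 0.05). The share of all tested genes that would pass was not computed, so this count is not read as particular to these genes. Vtn rose with the rod score (r = 0.87, permutation p = 1.6e-04, adjusted p = 0.0024; Spearman's rho = 0.79, permutation p = 0.0022, adjusted p = 0.022). Without the 2 mice farthest from the median score r was 0.90, and by identifier form it was 0.81 (no letter, 9 mice) and 0.94 (letter, 7 mice).

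The Vtn values can be set beside the rod scores of single libraries. Knockout hydroquinone replicate 1 had a rod score of 9.70 and 270.2 CPM of Vtn, while the other libraries of its group had scores of 2.77 to 3.56 and 41.1 to 53.3 CPM. Untreated knockout replicate 4 had a score of 9.85 and 247 CPM. The eyes of 1 mouse differed as well: the eyes of the 3 mice sampled on both sides differed in Vtn by 2.27, 2.93 and 2.48 times, the eye with the higher rod score, which was also the one whose library identifier has a letter, having the higher Vtn each time. With the rod score in the fit, the hydroquinone log2 fold change of Vtn was -0.42 in wild type and -0.02 in knockout. The value for knockout against wild type was further from 0 with the rod score than without it, 0.46 against 0.23 in untreated mice and 0.87 against 0.63 under hydroquinone. None of these passed. Whether rod RNA accounts for the Vtn values was not tested. In the pairs of eyes, rod score and identifier form cannot be told apart.

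Mmp2 rose with the stromal score, made of fibroblast genes such as Col1a1, Dcn and Lum (r = 0.90, permutation p = 2e-05, adjusted p = 6e-04; rho = 0.86, permutation p = 2e-04, adjusted p = 0.003). Without the 2 farthest mice r was 0.85, and by identifier form it was 0.93 (no letter) and 0.95 (letter). Untreated knockout replicate 3, with the lowest stromal score of 6.72, had 18.65 CPM, and the other eye of that mouse had 63.3 CPM. The stromal score did not give such a relation for Mmp14 (r = 0.34, permutation p = 0.26, adjusted p = 0.37).

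The remaining relations that passed were falls with the rod score. They were those of Timp2 (r = -0.79, permutation p = 0.0019, adjusted p = 0.017), Mmp14 (r = -0.77, permutation p = 0.0022, adjusted p = 0.017) and Fbln5 (r = -0.76, permutation p = 0.0030, adjusted p = 0.018). Spearman's rho was -0.76 for Timp2 (permutation p = 0.0037, adjusted p = 0.028), -0.63 for Mmp14 (permutation p = 0.025, adjusted p = 0.074) and -0.90 for Fbln5 (permutation p = 1.2e-04, adjusted p = 0.003). None of these 3 passed without the 2 mice farthest from the median rod score, where 11 mice remained and r was -0.71, -0.70 and -0.62 (permutation adjusted p = 0.115, 0.115 and 0.216). Whether the lost calls come from those mice or from the smaller number was not tested. By identifier form r lay between -0.87 and -0.69. By Pearson's r no relation to the macrophage score passed. By Spearman's rho 4 further relations did: Clu fell with the rod score (-0.73, permutation adjusted p = 0.033), and rho was 0.75 for Timp3 and 0.69 for Timp2 with the stromal score (permutation adjusted p = 0.028 and 0.041) and 0.70 for Timp2 with the macrophage score (permutation adjusted p = 0.041).

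**Figure D4:**
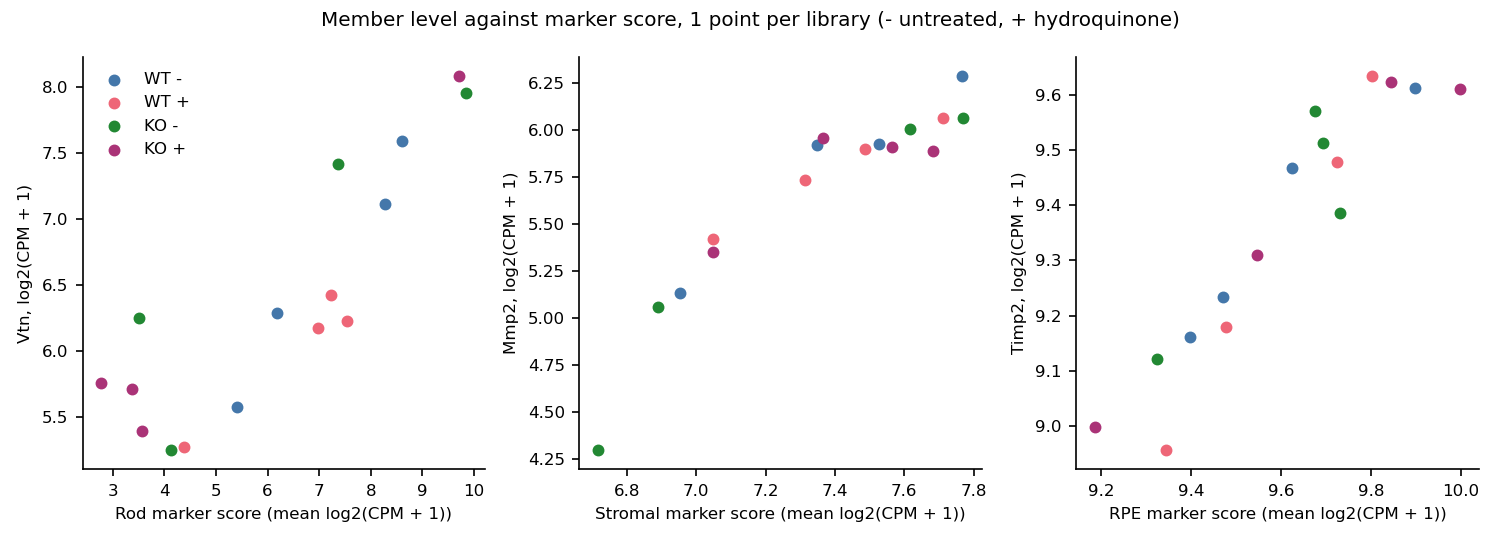
Level of Vtn, Mmp2 and Timp2 (log2(CPM + 1)) against the rod, stromal and RPE marker score, 1 point per library, coloured by group. Each gene rises with its score over all libraries together, and the libraries of the groups are intermixed. Relations inside single groups were not tested.

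A further 40 relations, to the RPE, corneal, oligodendrocyte and glial scores, were added after the data were seen. Of these, 4 passed and all were with the RPE score, which spanned only 9.19 to 10.00. The share of all tested genes that would pass with this score was not computed either. Timp2 rose with it most closely (r = 0.94, permutation p = 1e-05, the smallest the permutations can give, adjusted p = 4e-04; 0.95 without the 2 farthest mice). Timp3 had an r of 0.86 (permutation p = 2.1e-04, adjusted p = 0.0040), Fbln5 of 0.84 (permutation p = 3e-04, adjusted p = 0.0040) and Clu of 0.82 (permutation p = 7.9e-04, adjusted p = 0.0079). Spearman's rho was 0.94 for Timp2, 0.90 for Timp3, 0.84 for Fbln5 and 0.82 for Clu (permutation p = 1e-05, 5e-05, 5.3e-04 and 8.8e-04, adjusted p = 4e-04, 0.001, 0.0071 and 0.0088). Without the 2 farthest mice Pearson's r was 0.87 for Timp3, 0.77 for Fbln5 and 0.81 for Clu. Within the identifier forms, r lay between 0.61 and 0.95 for these 4 genes, the lowest being Clu in libraries without a letter. Efemp1, Htra1 and Timp1 passed with none of the 7 scores. Endothelial, mural and choroidal melanocyte markers were not set against the genes.

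**Figure D5:**
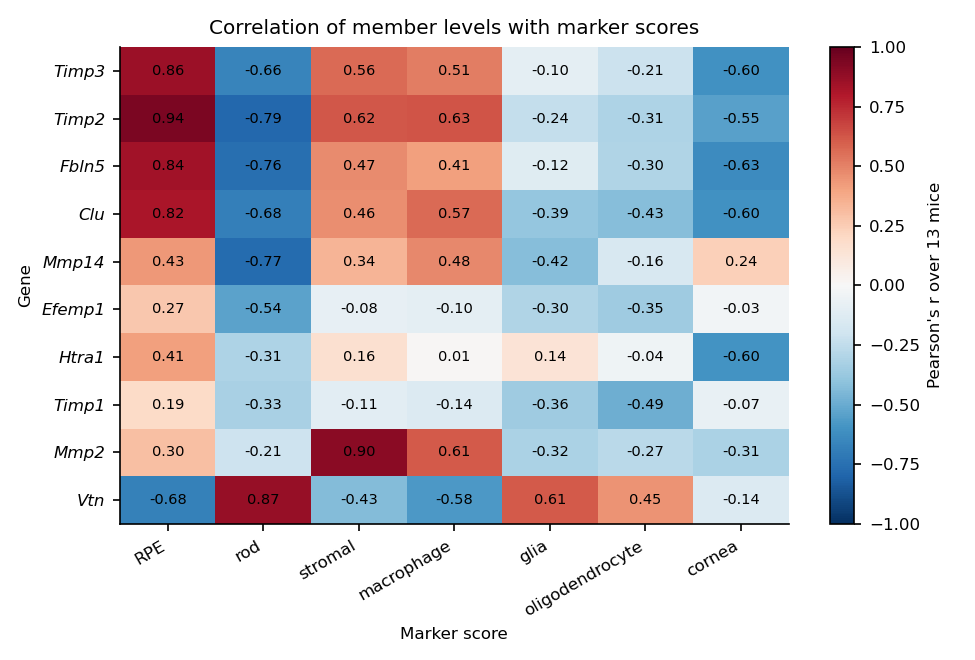
Pearson's r over 13 mice between each gene's log2(CPM + 1) and 7 marker scores, from -1 (blue) to 1 (red). Timp3, Timp2, Fbln5 and Clu are highest with the RPE score (0.82 to 0.94), Mmp2 with the stromal score (0.90) and Vtn with the rod score (0.87).

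The genes also grouped with each other. Over the 16 libraries, as a description in which libraries share treatment, tissue mix and, for 3 mice, the animal, the highest of 45 pairwise correlations were Timp3 with Timp2 (r = 0.92), Timp2 with Fbln5 (0.87) and Timp3 with Fbln5 (0.83). Clu came next with Timp3 (0.74). The lowest were Vtn with Mmp14 (-0.72) and Vtn with Timp2 (-0.58). Outside the 10 genes, those most like each one among genes of at least 10 CPM were named by the same measure. They were Slc16a9, Fam13a and Prkcq for Timp3 (0.97 to 0.98), Rab5b, the RPE channel gene Kcnj13 and the pigment cell regulator Mitf for Timp2 (0.92 to 0.93), Tram2, Vat1l and Eya1 for Fbln5 (0.92 to 0.94), and Aanat, Psap and Degs1 for Clu (0.93 to 0.95). For Mmp2 they were Cd34, Antxr2 and Dcn (0.91 to 0.94), the last also a gene of the stromal score. For Vtn they were Scamp5, Hexdc and Dpf3 (0.94 to 0.96), for Mmp14 Lta4h, Cyb5r3 and Tinagl1 (0.86 to 0.87), and for Htra1 Tsc22d1, Ephx2 and Lhx2 (0.87 to 0.88). For Efemp1 they were Ptprk, Gem and Il1r1 (0.86 to 0.92), and for Timp1 Pura, Bex3 and Sirt5 (0.69 to 0.80).

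The eyes of 1 mouse share genotype and treatment. In each of the 3 mice sampled on both sides, 1 eye had a library without a letter and the other a library with one, so eye and identifier form cannot be told apart. Over these mice, Htra1 differed between eyes by 1.03 to 1.13 times and Clu by 1.11 to 1.23 times. Timp3 differed by 1.15 to 1.60 times, Timp2 by 1.09 to 1.37 times and Mmp14 by 1.11 to 1.37 times. Mmp2 differed by 1.00 to 3.39 times and Vtn by 2.27 to 2.93 times. Besides Htra1, Timp3 (in Syn3, 10.1 CPM) and Timp1 (in Syn1, 5.68 CPM, above the 4.09 CPM of Timp1 itself) lie inside another gene on the opposite strand, so part of the Timp1 counts is uncertain.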

How the data were processed

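The values deposited for the 16 libraries are counts by Ensembl gene, 100% of them whole numbers, although the table is named for FPKM. The submitters' processing notes name STAR, Cufflinks, DESeq2 and the build mm10 with no role or version. The annotation, strand setting and duplicate handling are not given in the sources used here. Symbols, coordinates and exon lengths came from GENCODE vM21 (GRCm38), which matched 51633 of 51912 identifiers.

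Counts as deposited were tested with edgeR 4.0.16 (R 4.3.3; TMM scaling, quasi-likelihood F test, 1 model of 4 groups, mean CPM of 1 or more required, Benjamini-Hochberg over 15380 genes). Standard errors and 95% intervals came from the F statistic. Alternatives used DESeq2 1.42.0 and limma 3.58.1. Eyes entered as separate libraries. Replicates are numbered in accession order. Nothing in the labels beyond mouse and eye says that libraries are separate preparations, so p-values measure the spread between libraries. Library identifiers come with a letter (7 libraries) or without (9), treated as a possible batch. Relations used 100000 permutations of mice. No library pair of a group was a copy (chi-square per degree of freedom at least 21.9). The edgeR script was tested on simulated counts.

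The 10 genes and all lists were chosen with earlier results of these data known. The text names all 10 genes, the 2 genes of the wider list with the smallest p per comparison where none passed, and, for each of the 10, the 3 most correlated genes of at least 10 CPM.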

Additional observations from a re-analysis of the deposited data

Results flagged for a closer look

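The 10 genes in 4 groups gave 40 sets of 4 libraries in which the highest and lowest library were set against the rest (Dixon's ratio, the gap to the next library over the whole range, above its 95% critical value). There were 2 such libraries, both in knockout with hydroquinone. Chance flags about 1 in 20 sets, and these sets are not independent. Vtn was high in replicate 1, at 270.2 CPM (ratio 0.864), the library with the highest rod score of its group. Mmp2 was low in replicate 2, at 39.8 CPM (ratio 0.888), the library with the lowest stromal score of its group, 7.05 against 7.37 to 7.68. The part of these tissues in the 2 values was not tested. No gene of the 10 had a response to hydroquinone that differed between genotypes past the threshold (edgeR, 0 of 10; 1 of 10, Htra1, at an unadjusted p below 0.05; DESeq2 also 0 of 10).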

How the results depend on the processing

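None of the 10 genes passed in any of the 7 comparisons under any alternative run, with 0 of 10 also in each fit that left out 1 library. The alternatives were median-of-ratios scaling, no filter, DESeq2, limma with mice as random blocks (consensus correlation 0.0067), eyes summed, only the groups compared, the identifier form as covariate or each form alone, and marker scores as covariates, the corneal, oligodendrocyte and glial ones chosen after seeing the data. Over 70 log2 fold changes and 2070 alternative values, the lowest adjusted p was 0.115, 242 values lay on the other side of 0 from the reported one, and 106 moved by more than 1 standard error. For 53 of the 70 the sign changed at least once, so no direction is claimed for them. Htra1 kept its sign in all 30 alternatives for hydroquinone in wild type (-0.59 to -0.30) and for knockout under hydroquinone (0.18 to 0.61). This was not particular to Htra1. Among others, Clu kept its sign for hydroquinone in wild type (0.007 to 0.30) and in knockout (0.016 to 0.43). So did Efemp1 (0.22 to 0.58) and Fbln5 (0.046 to 0.55) for knockout under hydroquinone. The alternatives refit the same libraries. The number of relations to marker scores past the threshold, 5 of 30, was 2 without the 2 farthest mice (Vtn with rod and Mmp2 with stromal markers), 1 in libraries without a letter (Mmp2 with stromal markers) and 2 in those with one (Mmp14 with rod and Timp2 with macrophage markers), where fewer mice entered. It was 5 with a pseudocount of 0.1 or without TMM scaling. Over all genes, the number passing for hydroquinone was 1 in wild type (0 to 20, most with DESeq2), 7 in knockout (0 to 14) and 13 averaged (0 to 39). Under hydroquinone DESeq2 called 3 genes between genotypes against 0. No paired analysis was possible because replicate numbers follow accession order and pair no libraries across groups. At 66 to 192 counts per library, Timp1 had the fewest counts of the 10, and whether depth limits its comparisons was not tested.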
